A study of Mus musculus with 12 samples.

Results

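Retinal explants of adult mice were compared between the strains 129 (129X1/SvJJmsSlc) and B6 (C57BL/6NCrSlc) after 3 days in vitro (3DIV) with CHIR99021, an inhibitor of the kinase GSK3. The comparison rested on 4 of the 12 arrays of the series, 2 for each strain, which were chosen by their labels alone, and on all 45037 probe sets that are not array controls. The other 8 arrays held explants at 3DIV with vehicle and normal retina that was not cultured, again 2 for each strain, and they entered the fit for the spread and served as references. All mice were 10 weeks old per the labels and male per the methods. CHIR99021 was used at 15 µM according to the labels, and the methods mention a higher dose as well. The vehicle was dimethyl sulfoxide, and the methods describe the neural retina as freed from pigmented epithelium, lens, ciliary body and the other parts of the eye before culture. The labels call the 2 samples of each group biological replicates. Each condition had 2 retinas, and nothing says whether they came from separate animals. The p-values therefore measure only the spread between these samples, which may not be the spread between animals.

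GSK3 keeps β-catenin low by marking it for degradation, and its inhibition turns on the canonical Wnt pathway, whose output includes feedback genes such as Axin2 and Nkd1. Müller glia are the radial glia of the retina, and in adult mice they rarely divide, but damage and Wnt activity can bring some of them back into the cell cycle. The study asked why the glia of 129 divide more readily after damage than those of B6, and this comparison gives the strain difference in the RNA of the whole retina while GSK3 was inhibited.

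Levels are given as log2 of the deposited intensity, and differences as log2 of 129 over B6, so that a difference of 1 is 2-fold. A difference was called where its adjusted p was below 0.05. Medians of the 12 arrays lay between 68.7 and 70.6 in linear intensity, and the replicates of a group correlated with r of at least 0.9965 over probe sets. A normal retina array stood apart, 129 replicate 2, whose summed intensity over the lens genes was 31297 against 490 to 1415 on the other 11. On the arrays with CHIR99021 that sum was 952 and 1003 in B6 and 544 and 639 in 129. The rod gene Sag, which encodes arrestin, read 13.24 and 13.26 in B6 and 13.55 and 13.58 in 129, and the Müller glial gene Glul, which encodes glutamine synthetase, read 12.32 and 12.26 against 12.18 and 12.20, so the labelled tissue was present in both strains. In bulk RNA, fewer cells of a type and less RNA per cell cannot be told apart.

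Nkd1, a feedback inhibitor of Wnt signalling, was higher with CHIR99021 than with vehicle by 1.71 in B6 (adjusted p = 7.05e-06) and by 1.40 in 129 (adjusted p = 2.79e-05). Of 26 measured Wnt targets, 4 were called higher with the agent in B6, where 8.59% of 18193 genes were, and 5 in 129, where 7.28% were. In B6 1 target was called lower, Lgr5, a receptor of Wnt-dependent stem cells, at -0.37 (adjusted p = 0.0287), where 12.5% of genes were called lower. In 129 none was called lower (limma; 2 at an unadjusted p under 0.05), where 7.86% of genes were, and Lgr5 gave -0.23 (adjusted p = 0.172). Axin2 gave 0.28 in B6 (adjusted p = 0.051) and 0.45 in 129 (adjusted p = 0.00852). Between the strains Axin2 did not pass the test, at 7.90 and 7.94 in B6 and 7.84 and 7.95 in 129 with CHIR99021, a difference of -0.02 (SE 0.089).

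With CHIR99021, 4904 of the 45037 probe sets were called different between 129 and B6, which is 10.9%. Of these, 2708 were higher in 129 and 2196 lower, and 312 and 417 of them by at least 2-fold. The count fell to 3227 without B6 replicate 1, to 3142 without B6 replicate 2 and to 2694 without 129 replicate 1. By genes, with the brightest probe set of each gene standing for it, 7.32% of 18193 were called higher in 129 and 5.02% lower, and the median difference over all of them was 0.02. These shares are the background for the counts of gene lists that follow.

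Genes of mitosis were higher in 129. Of 63 measured genes that drive spindle assembly, chromosome segregation and cytokinesis, 53 were called higher in 129 and 2 lower, and the median difference of the list was 0.96. Of the 53, 30 were higher by at least 2-fold. Without any 1 of the 4 arrays, 44 to 51 were still called higher. The list's median was 0.18 with vehicle and -0.08 in normal retina.

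Mki67 (probe set 1426817_at), which encodes the proliferation antigen Ki67, read 6.93 and 6.88 on the B6 arrays and 9.18 and 8.77 on the 129 arrays with CHIR99021. Both 129 arrays stood above both B6 arrays, and the difference was 2.06 (SE 0.14, 4.18-fold, adjusted p = 6.37e-06). With vehicle the same probe set read 6.86 and 6.62 in B6 and 7.04 and 7.05 in 129, a difference of 0.30 (adjusted p = 0.168). In normal retina it lay between 4.15 and 4.56 on all 4 arrays, below every cultured array, and the strains overlapped there.

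Bub1 (1424046_at), a kinase of the spindle checkpoint, read 4.91 and 4.95 in B6 against 7.82 and 7.14 in 129, a difference of 2.55 (SE 0.21, adjusted p = 2.27e-05). Melk (1416558_at), a mitotic kinase of dividing progenitors, read 4.55 and 4.58 in B6 against 6.94 and 6.97 in 129, a difference of 2.39 (SE 0.092, adjusted p = 1e-07). Neither pair of groups overlapped, and the replicates of Melk lay close together in both strains. Birc5 (1424278_a_at), which encodes the chromosomal passenger protein survivin, read 5.99 and 5.96 in B6 against 8.0 and 7.75 in 129, a difference of 1.90 (SE 0.13, adjusted p = 7.08e-06).

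The other leading members of the list showed the same order. Pbk, a mitotic kinase, was higher in 129 by 2.38 (SE 0.15), Nusap1, a microtubule-binding protein of the spindle, by 2.27 (SE 0.12), and Cep55, which acts in the final cut of cytokinesis, by 2.24 (SE 0.12), with adjusted p of at most 3.63e-06. Other probe sets of 3 of the mitosis genes given here were not called, at 0.03 for Bub1 (adjusted p = 0.877), 0.08 for Cep55 (adjusted p = 0.802) and 0.24 for Nusap1 (adjusted p = 0.369). Of the 53 genes called higher, 49 had a higher level on 129 replicate 1 than on 129 replicate 2. With vehicle Bub1, Melk, Pbk, Nusap1 and Cep55 were also called higher in 129, by 0.81, 0.7, 1.12, 1.04 and 0.81. Birc5 (0.05) and Mki67 were not called there. The paper selected Pbk and Nusap1 as higher in 129 on these vehicle arrays, so their difference there was fixed by that choice.

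Both genes called lower in 129, of which Pttg1 was named after its values were seen, were already lower in its normal retina. Pttg1, which encodes securin, the inhibitor of sister chromatid separation, read 11.54 and 11.66 in B6 and 9.97 and 9.70 in 129 with CHIR99021, a difference of -1.77 (adjusted p = 5.33e-06), and in normal retina the difference was -4.56. Spc25, a kinetochore subunit that the list of resting Müller glia holds too, read 8.57 and 8.61 in B6 and 8.18 and 7.79 in 129, a difference of -0.61 (adjusted p = 0.029) that was -5.77 in normal retina. The call for Spc25 was lost without 129 replicate 2 (adjusted p = 0.201), B6 replicate 1 (0.0999) or B6 replicate 2 (0.125), and its other probe set gave -0.25 (adjusted p = 0.467). In 129 both genes were lowest in normal retina and highest with CHIR99021, while in B6 the level of Spc25 was highest in normal retina.

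**Figure D1:**
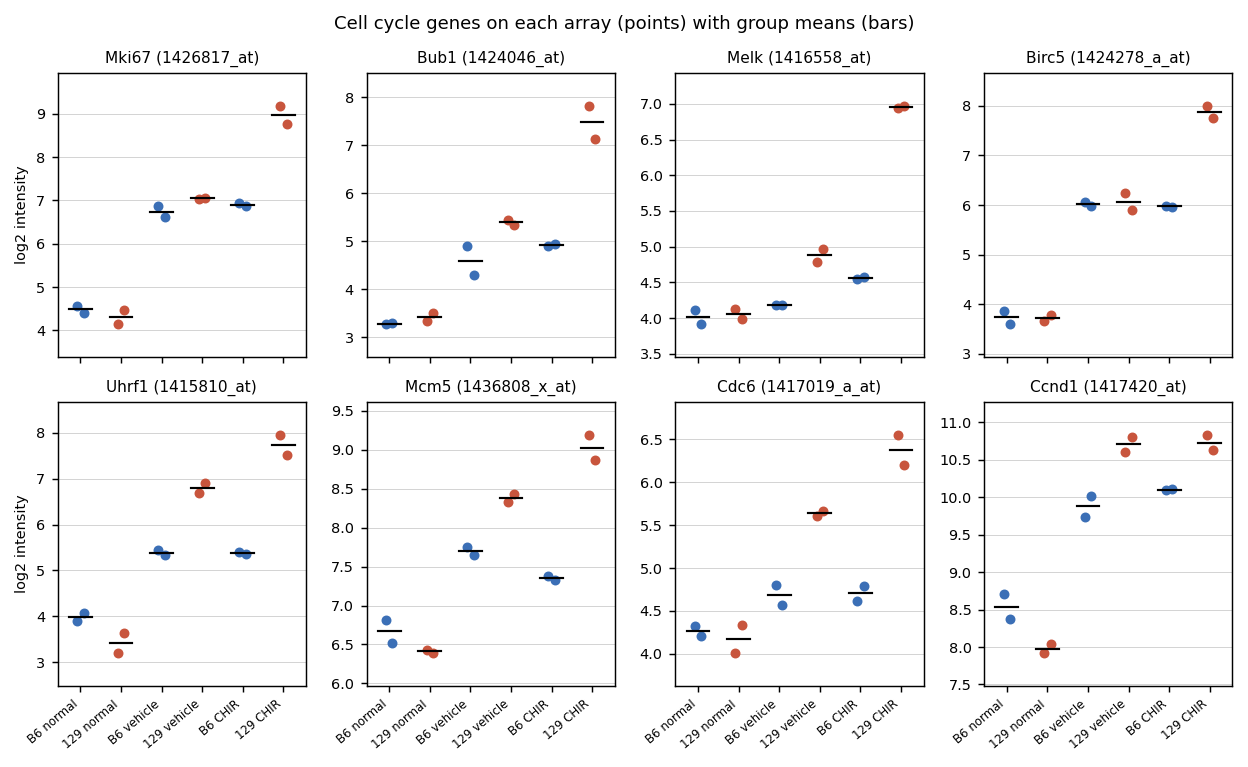
Level (log2 intensity, axes not starting at 0) of 8 cell cycle genes on each of the 12 arrays, with a point for each array and 2 arrays for each strain and condition. With CHIR99021 the 129 arrays of Mki67, at 9.18 and 8.77, stand above all 10 other arrays. With vehicle Bub1, Melk, Uhrf1, Mcm5, Cdc6 and Ccnd1 were also called higher in 129, while Mki67 and Birc5 were not called.

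Genes of DNA replication were higher in 129 as well, and by less. Of 51 measured genes of origin licensing, the replication fork and nucleotide supply, 32 were called higher in 129 and none lower (limma; 40 and 0 at an unadjusted p under 0.05), with a median of 0.49, and 11 of the 32 differed by at least 2-fold. Leaving out 1 of the 4 arrays gave 24 to 31 called higher and none lower. The list's median was 0.19 with vehicle and -0.11 in normal retina, and 16 of the 32 genes were also called higher in 129 with vehicle, where 10.8% of genes were. For members that the paper selected on the vehicle arrays, such as Uhrf1, Hells and Rrm2, this was fixed by that choice.

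Uhrf1 (1415810_at), which brings DNA methylation to newly copied DNA, read 5.41 and 5.35 in B6 and 7.95 and 7.52 in 129, a difference of 2.35 (SE 0.16, adjusted p = 6.33e-06) that was 1.41 with vehicle. Mcm5 (1436808_x_at), a subunit of the replicative helicase, read 7.38 and 7.33 in B6 and 9.19 and 8.87 in 129, a difference of 1.68 (SE 0.12, adjusted p = 7.87e-06) that was 0.68 with vehicle. In both genes the 129 arrays lay above the B6 arrays in either culture. Cdc6 (1417019_a_at), which loads that helicase onto origins, read 4.62 and 4.79 in B6 and 6.55 and 6.2 in 129, a difference of 1.67 (SE 0.14, adjusted p = 2.26e-05).

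Rrm2, the regulated subunit of ribonucleotide reductase, was higher in 129 by 1.93 (SE 0.18, adjusted p = 4.76e-05), and Hells, a chromatin remodeller of the SNF2 family, by 1.78 (SE 0.22, adjusted p = 0.000386), with -0.08 (adjusted p = 0.733) on another probe set of Hells. Of the 32 genes, 31 had a higher level on 129 replicate 1 than on 129 replicate 2. Pcna, the sliding clamp of the fork, named after its values were seen, was at 11.23 and 11.37 in B6 and 12.05 and 11.83 in 129, a difference of 0.64 (adjusted p = 0.00155).

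Promoter letters of both lists are given as a description, over all members with a promoter, called or not. The shares belong to the lists as chosen and not to the strain difference. RefSeq promoters (mouse build GRCm38.p6) were searched on both strands over the 250 bases before each start for E2F letters (TTTCCCGC or TTTGGCGC), which E2F factors bind at genes of S phase, and for the cell cycle homology region or CHR (TTTGAA), which the DREAM and MuvB complexes use at genes of mitosis. E2F letters were in 7 of 48 promoters of the replication list (14.6%), in 5% of the mitosis list and in 1.3% of 32851 promoters in all. CHR letters were in 22 of 60 promoters of the mitosis list (36.7%), in 12.5% of the replication list and in 16% in all. CCAAT letters were in 70% of the mitosis list, 56.2% of the replication list and 33.8% in all. The windows of 100 bases below are from the called genes of each list with the largest differences that held a match, among them Top2a, which encodes topoisomerase II and differed by 2.04 (adjusted p = 2.71e-05). They are written 5′ to 3′ in the direction of the gene, with the matched letters on either strand in capitals. They lie at chr19:38930882-38930981 (Hells, plus strand), chr8:75109314-75109413 (Mcm5, plus), chr11:98907967-98908066 (Cdc6, plus), chr19:38054941-38055040 (Cep55, plus), chr7:135716425-135716524 (Mki67, minus) and chr11:99024190-99024289 (Top2a, minus).
Hells, E2F: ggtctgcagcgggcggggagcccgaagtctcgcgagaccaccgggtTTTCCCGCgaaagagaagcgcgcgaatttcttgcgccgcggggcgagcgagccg
Mcm5, E2F: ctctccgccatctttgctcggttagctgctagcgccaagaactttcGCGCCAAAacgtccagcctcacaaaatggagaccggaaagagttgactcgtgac
Cdc6, E2F: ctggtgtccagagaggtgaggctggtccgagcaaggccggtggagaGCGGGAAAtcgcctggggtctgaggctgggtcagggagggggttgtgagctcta
Cep55, CHR: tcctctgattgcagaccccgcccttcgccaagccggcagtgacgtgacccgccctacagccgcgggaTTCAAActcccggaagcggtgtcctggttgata
Mki67, CHR: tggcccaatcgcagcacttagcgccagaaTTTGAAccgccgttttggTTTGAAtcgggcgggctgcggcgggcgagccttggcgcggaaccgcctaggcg
Top2a, CHR: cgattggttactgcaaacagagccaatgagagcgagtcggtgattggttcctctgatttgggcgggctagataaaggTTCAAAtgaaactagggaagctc
A match is a description of the reference sequence and not of binding, and the sequence is that of the reference genome and not of either strain's mice. Mki67 held CHR letters at 2 places in its window.

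The difference in mitosis genes was larger with CHIR99021 than with vehicle. In the test of that change, which is the strain difference with CHIR99021 minus that with vehicle, 37 of the 63 mitosis genes were called higher and none lower (53 and 0 at an unadjusted p under 0.05), with a median change of 0.88, where 0.599% of all genes were called higher and 0.357% lower. The count depended on single arrays and was 10 without 129 CHIR99021 replicate 1, 11 without 129 vehicle replicate 2, 12 without B6 CHIR99021 replicate 1, 13 without B6 vehicle replicate 1, 20 without B6 vehicle replicate 2 and 21 without 129 vehicle replicate 1, and never included a gene called lower, while the list's median stayed between 0.77 and 0.99. Within strains, Mki67 was higher with CHIR99021 than with vehicle by 1.93 in 129 (adjusted p = 2.57e-05) and gave 0.17 in B6 (adjusted p = 0.481). Melk was higher by 2.07 in 129 and by 0.38 in B6, with adjusted p of 9.56e-07 and 0.0155. Of the 51 replication genes, 4 were called with a larger difference, 1 to 8 without single arrays, with a median change of 0.39.

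Among regulators of G1, the phase in which a cell commits to division, 11 of 29 were called higher in 129 and 1 lower, with a median of 0.28. The count of 11 was 3 without 129 replicate 1 and 6 without either B6 array. Ccnd1, which encodes cyclin D1, read 10.09 and 10.11 in B6 and 10.83 and 10.63 in 129, a difference of 0.63 (SE 0.13, adjusted p = 0.0108), and with vehicle the difference was 0.83 (adjusted p = 0.00136). The strains did not overlap in either culture, but the call with CHIR99021 was lost without 129 replicate 1 (adjusted p = 0.1), B6 replicate 1 (0.059) or B6 replicate 2 (0.0534). The other 2 probe sets of Ccnd1 gave 1.04 (adjusted p = 0.000358) and 0.32 (adjusted p = 0.0569).

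Ccnd3, which encodes cyclin D3, was lower in 129, at 8.96 and 9.07 in B6 and 8.27 and 8.32 in 129, a difference of -0.72 (SE 0.10, adjusted p = 0.000983) that was -0.85 with vehicle. Rbl1, which encodes the pocket protein p107, was higher in 129 by 0.72 (SE 0.10, adjusted p = 0.000895). Other probe sets were not called, at -0.30 and -0.11 for Ccnd3 and between -0.04 and 0.34 for Rbl1. Myc, a growth transcription factor, read 6.65 and 6.77 in B6 and 7.88 and 7.46 in 129, a difference of 0.96 (adjusted p = 0.00503, but 0.0553 without 129 replicate 1). None of the 29 regulators was called in the test of the change (limma), with 3 higher and 3 lower at an unadjusted p under 0.05, and the changes of Ccnd3, Rbl1 and Myc were 0.12, 0.27 and -0.04.

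Of 32 measured genes of retinal progenitors, 13 were called higher in 129 and 1 lower, with a median of 0.05, and 8 to 10 higher and none lower without any 1 array. The list holds Hmga2, Ccnd1, Rrm2, Fignl1 and Myc, which the paper selected as higher in 129 in the vehicle explants of this series. The count therefore includes genes chosen by their strain difference in these data. Hmga2 (1450780_s_at), a chromatin protein of fetal progenitors, led the list, at 6.74 and 6.90 in B6 and 10.12 and 9.41 in 129, a difference of 2.94 (SE 0.21, 7.70-fold, adjusted p = 8.41e-06). Both 129 arrays lay far above both B6 arrays, and the difference was 2.54 with vehicle and -0.61 (adjusted p = 0.0972) in normal retina. Within strains Hmga2 gave 0.58 (adjusted p = 0.107) for the agent in 129 and 0.17 (adjusted p = 0.653) in B6.

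Nes, which encodes the intermediate filament nestin of progenitors, read 8.21 and 8.25 in B6 and 9.16 and 8.81 in 129, a difference of 0.75 (SE 0.11, adjusted p = 0.00093). Fignl1, an ATPase of DNA repair, was higher in 129 by 1.39 (adjusted p = 0.00208), but gave -0.19 (adjusted p = 0.313) on its other probe set. Mbd1, which binds methylated DNA and belongs to the chromatin list, was lower in 129, at 10.06 and 9.97 in B6 and 9.13 and 9.21 in 129, a difference of -0.84 (SE 0.08, adjusted p = 6.05e-05). Its probe sets disagreed in size, the others also being called lower in 129, from -2.56 to -0.44. Of 45 chromatin genes, 7 were called higher in 129 and 2 lower, 5 or 6 and 1 without 129 replicate 1, 129 replicate 2 or B6 replicate 2.

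Genes of resting Müller glia were divided. Of 24 measured, 8 were called lower in 129 and 3 higher, with a median of -0.20, and the counts moved to 5 and 1 without 129 replicate 1, 9 and 1 without 129 replicate 2 and 4 and 1 without B6 replicate 2. The 8 include Spc25 (-0.61), the kinetochore gene counted in the mitosis list as well. Aqp4 (1434449_at), the water channel of the glial endfeet, read 10.35 and 10.62 in B6 and 9.14 and 9.59 in 129, a difference of -1.12 (SE 0.13, adjusted p = 0.000272). With vehicle the strains lay together, at 10.62 and 10.58 in B6 and 10.44 and 10.51 in 129, and with CHIR99021 the level was lower than with vehicle by 1.11 in 129 (adjusted p = 0.000497), against -0.11 in B6 (adjusted p = 0.635). The other 2 probe sets of Aqp4 gave -1.21 and -0.75 between the strains.

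Dapl1, a gene of mature glia and epithelium, was lower in 129 by 1.56 (SE 0.16, adjusted p = 0.000112) and Dkk3, a secreted Wnt modulator, by 0.84 (SE 0.10, adjusted p = 0.000334). Cav1, the coat protein of caveolae, was higher in 129, at 10.41 and 10.39 in B6 and 11.11 and 11.09 in 129, a difference of 0.70 (SE 0.067, adjusted p = 6.45e-05). Rlbp1, the retinaldehyde-binding protein of Müller glia, named after its values were seen, gave -0.34 (adjusted p = 0.107), with 129 replicate 1 at 11.52 and the other 3 arrays between 11.94 and 12.11.

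Of 23 genes of reactive gliosis, 10 were called lower in 129 and 5 higher, with a median of -0.34, and 7 and 3 without 129 replicate 1. The list holds Gfap, Cp, A2m, S100a6, Fgf2 and Timp1, which the paper selected as higher in B6 in the vehicle explants. It also holds Ednrb and Il6, selected as higher in 129. The counts therefore include genes chosen by their strain difference in this series. Lcn2 (1427747_a_at), an iron carrier secreted by reactive glia, read 12.25 and 12.50 in B6 and 10.47 and 10.88 in 129, a difference of -1.70 (SE 0.16, adjusted p = 6.45e-05). The same difference stood with vehicle (-1.70) and in normal retina (-1.64), while the agent was followed by a lower level in both strains, by 1.55 in B6 and 1.54 in 129. A2m, a protease inhibitor, was lower in 129 by 1.36 (adjusted p = 0.000532), and Tnc, the matrix protein tenascin C, was higher by 0.95 (adjusted p = 0.00416).

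Gfap, the glial intermediate filament, read 9.25 and 9.20 in B6 and 8.28 and 8.59 in 129, a difference of -0.79 (adjusted p = 0.0142) that lost its call without 129 replicate 1 (0.128), B6 replicate 1 (0.0757) or B6 replicate 2 (0.0604). Its probe sets disagreed in size, the others giving -0.56 (adjusted p = 0.0941) and -2.98 (adjusted p = 5.24e-06). Fgf2, a growth factor, was lower in 129 by 1.04 (SE 0.16, adjusted p = 0.0015).

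Markers of microglia and macrophages, the immune cells of the retina, were lower in 129. Of 55 measured, 28 were called lower and none higher (limma; 37 and 2 at an unadjusted p under 0.05), with a median of -0.46, and 22 to 24 were called lower without any 1 array, with 1 called higher without B6 replicate 1. Their summed intensity with CHIR99021 was 17872 and 19003 in B6 and 15067 and 16069 in 129, and with vehicle 23626 and 21594 against 15049 and 13900. With vehicle, where 10.2% of all genes were called lower, 26 of the same 28 were also called lower in 129, and 15 in normal retina, where 5.83% were. Markers such as Aif1, Clec7a and Ly86 are among the genes the paper selected as higher in B6 on these vehicle arrays. For such members the lower level in 129 with vehicle was fixed by that choice. The summed intensity of the mitosis genes was 11720 and 11973 in B6 and 18125 and 15385 in 129 with CHIR99021, and 13240 and 13174 in B6 and 10433 and 9900 in 129 with vehicle. With CHIR99021 the microglial sum was lower and the mitosis sum higher in 129, and with vehicle both sums were lower in 129. Bright genes weigh most in such a sum. Counted by genes, 11 of the 63 mitosis genes were called higher in 129 with vehicle and 3 lower, with a median of 0.18. Of all genes 10.8% were called higher with vehicle and 10.2% lower. The part of immune cells in the other results was not tested. RMA gives no value of 0, and the defining microglial genes Cx3cr1, P2ry12 and Tmem119 did not pass the test, with -0.22, -0.40 and -0.29.

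Clec7a (1420699_at), a receptor of activated microglia that binds fungal glucans, read 9.40 and 9.29 in B6 and 6.91 and 7.13 in 129, a difference of -2.32 (SE 0.15, 5.0-fold, adjusted p = 3.67e-06). The strains did not overlap, and the difference was -1.44 with vehicle and -0.33 (adjusted p = 0.201) in normal retina. Ms4a6b, a membrane protein of macrophages, was lower in 129 by 1.83 (SE 0.14), Ly86, a partner of a Toll-like receptor homologue, by 1.69 (SE 0.081), Mrc1, the mannose receptor, by 1.52 (SE 0.16), and Olfml3, a secreted protein of microglia, by 1.36 (SE 0.084), with adjusted p of at most 0.000102, though another probe set of Ms4a6b gave -0.51 (adjusted p = 0.0987). Aif1, which encodes the microglial marker IBA1, read 4.35 and 4.65 in B6 and 3.93 and 3.72 in 129, a difference of -0.68 (adjusted p = 0.00229) that was -1.55 with vehicle.

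Of 14 complement genes, 7 were called lower in 129 and 1 higher, and 6 lower and none higher without any 1 array. C1qb (1417063_at), a chain of the initiating complex C1q, read 8.79 and 8.76 in B6 and 7.65 and 7.79 in 129, a difference of -1.06 (SE 0.12, adjusted p = 0.000168), and its partner C1qa gave -1.08 (SE 0.079). Both were lower in 129 in every condition, by 1.42 and 1.65 with vehicle and by 1.53 and 1.13 in normal retina. The inhibitory protease Cfi was lower by 1.99 (SE 0.099), Cd59a, which blocks the membrane attack complex, by 1.65 (SE 0.076), and the C1 inhibitor gene Serping1 by 1.34 (SE 0.19), with adjusted p of at most 0.0011.

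Chemokines and cytokines were called lower in 129 for 12 of 37 and higher for 3, with a median of -0.04, and for 8 and 1 without 129 replicate 1. Cxcl5 (1419728_at), which attracts neutrophils, read 6.95 and 6.99 in B6 and 4.30 and 4.75 in 129, a difference of -2.44 (SE 0.15, adjusted p = 2.42e-06). With vehicle it was at 4.65 and 4.81 in B6 and 3.72 and 4.0 in 129, a smaller gap of -0.87, and CHIR99021 was followed by a rise of 2.24 in B6 (adjusted p = 9.97e-06) and of 0.66 in 129 (adjusted p = 0.0151). Cxcl10, which attracts T cells, read 8.74 and 9.46 in B6 and 6.52 and 6.70 in 129, a difference of -2.49 (SE 0.25, adjusted p = 9.57e-05).

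The monocyte chemokines Ccl12 and Ccl9 were lower in 129 by 2.02 (SE 0.17) and 1.65 (SE 0.10). Clcf1, a cytokine of the interleukin 6 family, was higher in 129, at 7.57 and 7.48 in B6 and 9.35 and 8.91 in 129, a difference of 1.61 (SE 0.15, adjusted p = 5.06e-05). Its other probe sets gave 1.24 (adjusted p = 0.00398) and 0.46 (adjusted p = 0.112). Il6 itself, named after its values were seen, was higher in 129 with vehicle by 1.41 (adjusted p = 0.000182) and gave -0.22 (adjusted p = 0.47) with CHIR99021, where all 4 arrays lay between 3.84 and 4.22.

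**Figure D2:**
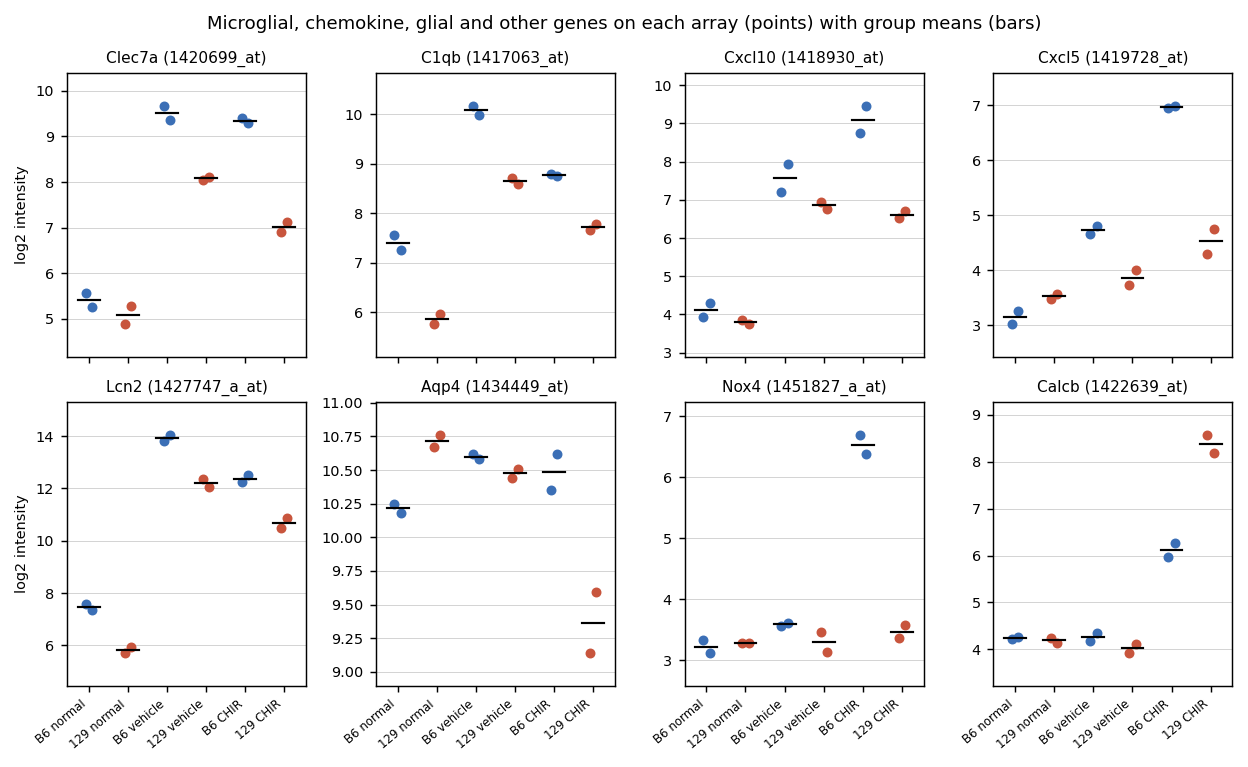
Level (log2 intensity, axes not starting at 0) of 8 immune, glial and other genes on each of the 12 arrays, a point for each array. Clec7a and C1qb are lower in 129 in both cultures, Nox4 and Cxcl5 stand high on the 2 B6 arrays with CHIR99021, Aqp4 stands low and Calcb high on the 2 129 arrays with CHIR99021.

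Interferon-inducible genes did not move one way. Of 66 measured, 10 were called higher in 129 and 17 lower with CHIR99021, with a median of -0.11 and a range from -2.75 to 5.44. With vehicle 28 were called higher and 11 lower, with a median of 0.17, and in normal retina, where 5.41% of all genes were called higher, 1 was higher and 22 were lower. The 10 genes higher with CHIR99021 were all among the 28 higher with vehicle.

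The largest difference of any probe set with 1 gene symbol was in this list. Ifi202b (1421551_s_at), a DNA-binding member of the Ifi200 family, read 3.97 and 4.38 in B6 and 9.63 and 9.61 in 129, a difference of 5.44 (SE 0.14, 43.4-fold, adjusted p = 9.12e-09). It was equally large with vehicle (5.26), but in normal retina all 4 arrays lay between 3.65 and 3.82. Gbp2b (1420549_at), a guanylate-binding GTPase, read 4.26 and 4.56 in B6 and 9.18 and 9.38 in 129, a difference of 4.87 (SE 0.19, 29.3-fold, adjusted p = 1.07e-07), and was at 4.91 and 5.29 in the normal retina of 129. Both genes thus reached high levels in the cultured 129 retina alone among the 6 groups.

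Near relatives went the other way. Within the Ifi200 family, Mndal (1452231_x_at) read 6.82 and 7.46 in B6 and 4.36 and 4.41 in 129, a difference of -2.75 (SE 0.22, adjusted p = 1.57e-05), and Ifi204, named after its values were seen, gave -2.27 (adjusted p = 1.51e-05). Among guanylate-binding proteins Gbp3 was higher in 129 by 1.2 (SE 0.10, adjusted p = 3.29e-05), while Gbp2, named after its values were seen, was lower by 0.88 (adjusted p = 0.00459). Trim34a, of the Trim family of antiviral ubiquitin ligases, was lower by 2.69 on its brighter probe set and higher by 1.30 (adjusted p = 0.000477) on the other. Xaf1, an interferon-induced death regulator, gave -1.97 on the brighter and 3.81 on the other, so neither gene has a settled direction. Members of these families are close in sequence, and whether probe sets read a relative or a strain's variant was not tested.

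The promoters of the leading gene in each direction that held a match are shown for the core of the interferon-stimulated response element or ISRE (GAAANNGAA on either strand), which was in 25 of 63 promoters of the list (39.7%) and in 7.13% of all. STAT letters (TTCNNNGAA) were in 19% of the list and 7.02% of all. The windows, in the direction of the gene with the matched letters in capitals, lie at chr3:142594665-142594764 (Gbp2b, plus strand) and chr1:173880188-173880287 (Mndal, minus strand) of GRCm38.p6, from RefSeq.
Gbp2b, ISRE core: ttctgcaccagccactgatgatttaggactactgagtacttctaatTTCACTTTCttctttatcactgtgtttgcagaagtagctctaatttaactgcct
Mndal, ISRE core: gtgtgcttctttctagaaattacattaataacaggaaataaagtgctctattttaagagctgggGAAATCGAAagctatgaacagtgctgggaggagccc
Each promoter held the letters once, on the minus strand of the gene for Gbp2b and on the plus strand for Mndal.

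**Figure D3:**
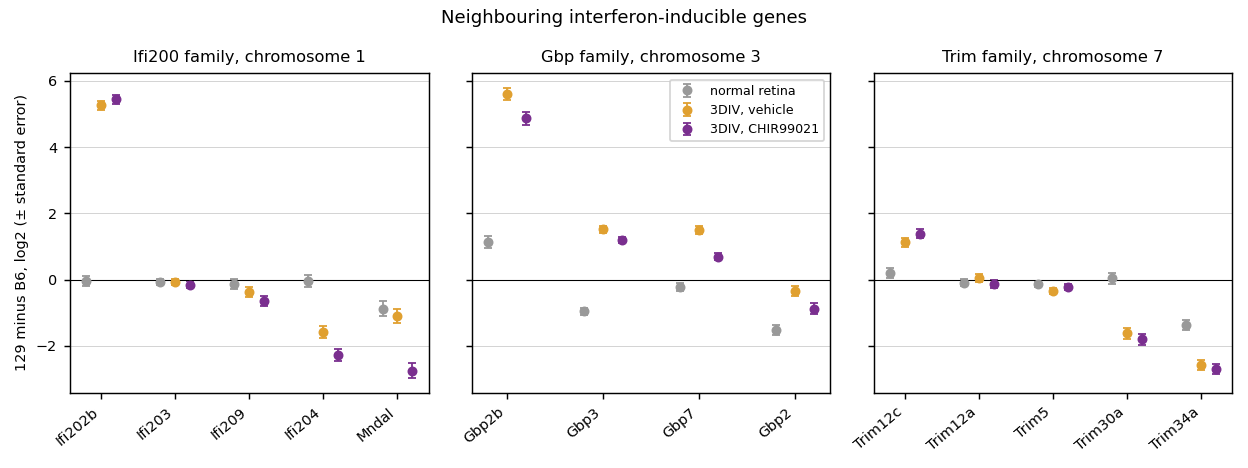
Strain difference (log2 of 129 over B6, with bars for the standard error) of members of the Ifi200, guanylate-binding and Trim families in normal retina, with vehicle and with CHIR99021. Ifi202b and Gbp2b stand at 5.44 and 4.87 with CHIR99021, while Mndal, Ifi204 and Trim34a lie between -2.75 and -2.27.

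Some interferon genes that were higher in 129 with vehicle stood level with CHIR99021. Ifit2, which restrains translation of viral RNA and was named after its values were seen, read 10.16 and 10.01 in B6 and 11.04 and 10.92 in 129 with vehicle, a difference of 0.89 (adjusted p = 5.93e-05). With CHIR99021 it was at 11.08 and 11.21 in B6 and 11.05 and 11.05 in 129, a difference of -0.09 (adjusted p = 0.597). In the test of the change 7 of the 66 were called lower and none higher, 2 to 6 without single arrays. Of 19 genes of antigen presentation, 1 was called higher in 129 (H2-T24, 1.73, adjusted p = 0.00179) and 1 lower (H2-M3, -0.86, adjusted p = 5.69e-05).

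Genes of neurons were called in both directions. Rod, cone and ganglion cell genes were called for 25.9%, 18.8% and 30%, either way, where 12.3% of all genes were, and bipolar, amacrine and horizontal cell genes for 10.0%, 14.3% and 10.0%. Of 27 rod genes, 5 were called lower in 129 and 2 higher, with a median of -0.14, and 1 was higher without any 1 array. Of 16 cone genes 3 were called lower and none higher (limma; 6 and 1 at an unadjusted p under 0.05), or 2 and 1 without 129 replicate 2. Samd11, a transcriptional regulator of rods, read 10.68 and 10.69 in B6 and 8.68 and 8.55 in 129, a difference of -2.08 (SE 0.094, adjusted p = 2.79e-07) that was -1.97 with vehicle and -0.61 in normal retina. Nxnl1, which encodes the rod-derived cone viability factor, was lower in 129 by 1.54 (SE 0.08, adjusted p = 7.4e-07) and Abca4, the retinoid flippase of the outer segment, by 1.11 (SE 0.13, adjusted p = 0.000286). Guca1b, a calcium sensor of guanylate cyclase, was lower by 1.04 (SE 0.081), and Grk1, rhodopsin kinase, was higher by 1.16 (SE 0.18). All 5 were also called in the same direction with vehicle and in normal retina. The paper took Nxnl1 and Abca4 from the probe sets that differed most between the strains' vehicle explants. Their difference with vehicle was fixed by that choice. Other probe sets gave -0.21 (adjusted p = 0.34) for Samd11 and 0.22 (adjusted p = 0.298) for Nxnl1.

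Bipolar, amacrine and horizontal cell genes gave 2 called lower of 20, 2 higher and 1 lower of 21, and 1 lower of 10, and ganglion cell genes 3 higher and 3 lower of 20. Without 129 replicate 1 these became none of 20, 1 higher of 21, none of 10 and 1 lower of 20, and without B6 replicate 2 none, 1 higher and 1 lower, none, and 1 higher and 1 lower. Without B6 replicate 1 the bipolar, horizontal and ganglion cell genes gave 1 lower, none, and 1 higher and 1 lower, and without 129 replicate 2 the amacrine cell genes gave 1 higher and 1 lower. Nefh, the heavy neurofilament of ganglion cells, was lower in 129 by 0.55 (SE 0.086, adjusted p = 0.0019) and Th, the rate-limiting enzyme of dopamine synthesis in amacrine cells, was higher by 0.46 (SE 0.082, adjusted p = 0.00433). Trpm1, the channel of ON bipolar cells, read 7.52 and 8.45 in B6 and 6.84 and 7.18 in 129, a difference of -0.97 (adjusted p = 0.0215) that was lost without 129 replicate 1 (0.162) or B6 replicate 2 (0.0788), and another probe set gave 0.53 (adjusted p = 0.139). Of the genes of tissues outside the neural retina, lens gave no call of 14 (limma; none at an unadjusted p under 0.05, and 1 lower without B6 replicate 1), pigmented epithelium 2 lower of 19 (1 higher and 1 lower without B6 replicate 2), vessels 1 higher and 1 lower of 23 (1 higher without 129 replicate 1 or B6 replicate 2), and T cells 1 higher and 1 lower of 12 (none without replicate 1 of either strain, 1 higher without replicate 2).

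Of 26 Wnt targets, 6 were called higher in 129 than in B6 with CHIR99021 and none lower (limma; 8 and 2 at an unadjusted p under 0.05), with a median of 0.03, and 2 without 129 replicate 1 and 3 without B6 replicate 1. Sp5, a Wnt-induced transcription factor, read 5.22 and 4.93 in B6 and 6.0 and 5.83 in 129, a difference of 0.84 (SE 0.12, adjusted p = 0.000785), while with vehicle all 4 arrays lay between 4.56 and 4.69. Nkd1 was at 8.36 and 8.24 in B6 and 8.93 and 9.02 in 129, a difference of 0.68 (adjusted p = 0.00173) that was 0.99 with vehicle and 0.77 in normal retina, while its other 3 probe sets gave -0.04 to 0.13 with CHIR99021 and were not called. TCF letters (CTTTGAA or CTTTGAT on either strand, the former containing the CHR letters) were in 3 of 21 promoters of the list (14.3%) and in 7.48% of all.

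Output genes of the MAP kinase pathway were called higher in 129 for 5 of 31 and lower for 1, and without B6 replicate 2 lower for 2. They included Met, the receptor of hepatocyte growth factor, at 1.40 (SE 0.15, adjusted p = 0.000142), Fosl1, a partner of Jun, at 1.15 (SE 0.071, adjusted p = 2.97e-06), Ets1, a transcription factor, at 1.01 (SE 0.12), and the feedback inhibitors Spry2 and Dusp10 at 0.69 and 0.68. Fosl1 was at 6.98 and 7.02 in B6 and 8.18 and 8.14 in 129. In 4 of these 5 the strains also stood apart by at least 0.69 with vehicle, Dusp10 giving 0.32. The paper selected Met, Fosl1 and Ets1 as higher in 129 on these vehicle arrays. For these genes the gap with vehicle was fixed by that choice. Another probe set each of Met, Ets1 and Dusp10 was not called, at 0.04, 0.01 and 0.26. The remaining probe sets of Ets1 were called higher in 129, at 0.36 (adjusted p = 0.0444) and 1.19 (adjusted p = 0.0119).

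Of 35 p53 targets and genes of cell death, 7 were called lower in 129 and none higher (limma; 12 and 1 at an unadjusted p under 0.05), with a median of -0.10. Phlda3, an inhibitor of Akt induced by p53, read 9.26 and 9.45 in B6 and 7.97 and 7.95 in 129, a difference of -1.40 (SE 0.093, adjusted p = 4.74e-06). Fas, the death receptor, was lower in 129 by 0.97 (SE 0.12), Casp1, the inflammatory caspase, by 0.93 (SE 0.15), Pmaip1, which encodes the death protein Noxa, by 0.82 (SE 0.11), and Btg2, an antiproliferative factor, by 0.70 (SE 0.13), with adjusted p of at most 0.00518. All were also called lower with vehicle. For Casp1 and Pmaip1, which the paper selected as higher in B6 on these vehicle arrays, that was fixed by the choice. Another probe set of Btg2 gave -0.23 (adjusted p = 0.141).

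Of 45 genes of matrix and migration, 8 were called higher in 129 and 3 lower, 5 and 2 without 129 replicate 1. Matn2, a matrix adaptor protein, was higher by 2.36 (SE 0.34, adjusted p = 0.00116), and Col4a6, a basement membrane collagen, lower by 2.08 (SE 0.11, adjusted p = 6.92e-07). Ccn2, a target of YAP that regulates matrix, read 7.50 and 7.61 in B6 and 5.88 and 6.49 in 129, a difference of -1.37 (SE 0.22, adjusted p = 0.0023). Endothelin signals gave Edn2, a ligand released by damaged photoreceptors, at -0.73 (adjusted p = 0.00717, and 0.0564 without B6 replicate 1 or 0.0605 without 129 replicate 2), and its receptor gene Ednrb at 0.74 (SE 0.089, adjusted p = 0.000323) on 1437347_at. The other 2 probe sets of Ednrb were not called, at 0.50 (adjusted p = 0.0828) and 0.29 (adjusted p = 0.267).

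The remaining lists were mixed. Of genes of oxidative stress and metallothioneins 33.3% were called either way, of the Notch pathway 20.0%, of the integrated stress response 19.2% and of YAP targets 18.2%, against 12.3% of all genes. Of 26 genes of the integrated stress response 4 were called higher and 1 lower, but none lower without B6 replicate 2 or either 129 array. Of 25 Notch genes 3 were called higher and 2 lower, with 1 higher without 129 replicate 1 or B6 replicate 2, 2 higher and 1 lower without 129 replicate 2 and 2 higher without B6 replicate 1. Of 22 YAP targets 2 were called higher and 2 lower, the latter 1 without any 1 array. Of 21 genes of oxidative stress and metallothioneins 4 were called higher and 3 lower, with none without 129 replicate 1 or B6 replicate 2, 3 higher without 129 replicate 2 and 1 each way without B6 replicate 1. Of 27 genes of glycolysis 3 were lower, and of 21 genes of cholesterol synthesis 1 was higher, Msmo1, a sterol oxidase, by 0.73 (adjusted p = 0.00446). Notch4, a receptor of vessels, was higher in 129 by 1.27 (SE 0.17, adjusted p = 0.000591). Other probe sets gave 0.15 for Msmo1 and 0.01 and 0.02 for Notch4, none of them called. None of 10 housekeeping genes was called (limma; none at an unadjusted p under 0.05), and their differences lay between -0.22 and 0.15.

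**Figure D4:**
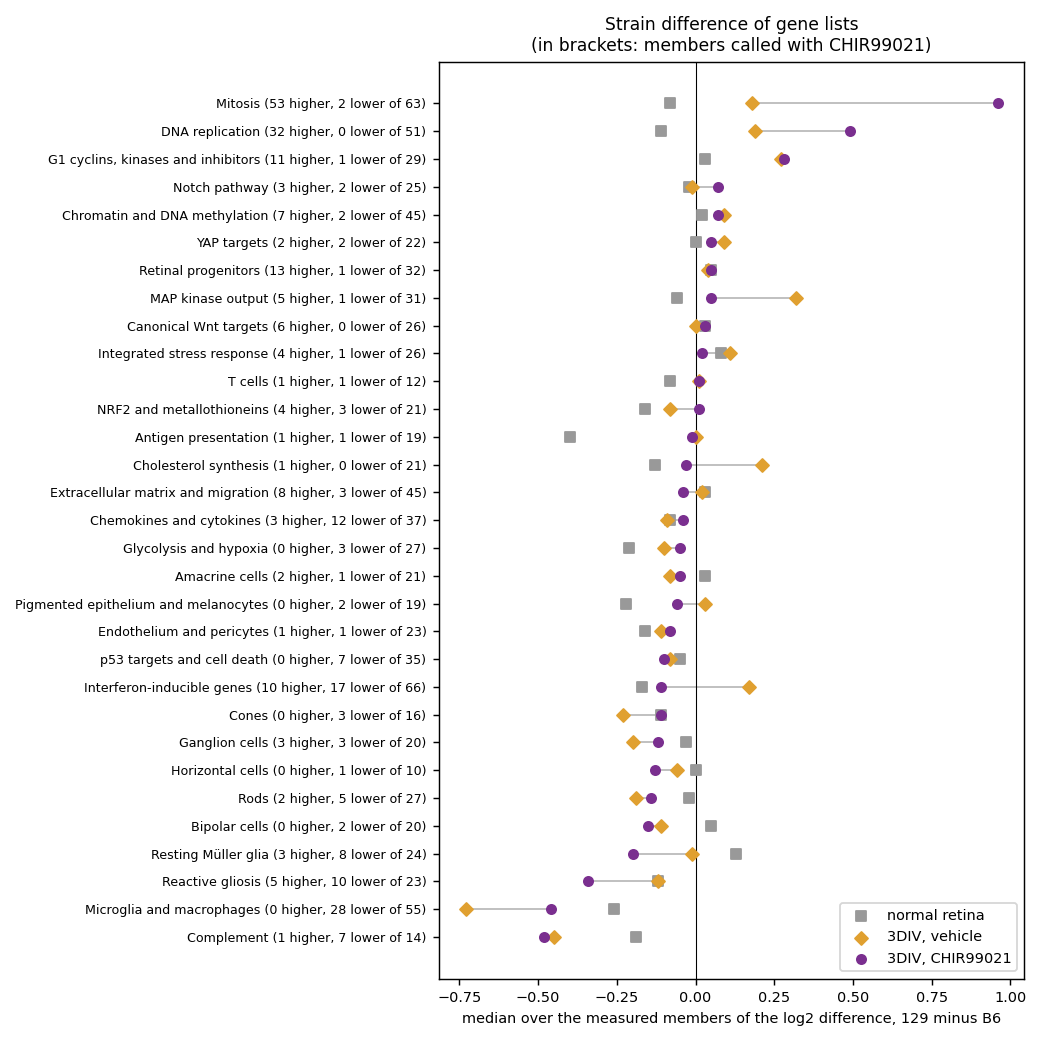
Median strain difference (log2 of 129 over B6) of each gene list, by the brightest probe set of each gene, in normal retina, with vehicle and with CHIR99021. Mitosis stands at 0.96 and DNA replication at 0.49 with CHIR99021, and complement, microglia and gliosis stand below 0 at -0.48, -0.46 and -0.34, while the median of all genes is 0.02.

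Many of the largest differences were present in every condition and rested on 1 probe set. Behind Ifi202b, Mtrex, a helicase of RNA decay, was higher in 129 by 5.03 on 1447517_at and by 4.95 in normal retina, while its other 2 probe sets gave -0.02 and -0.10 with CHIR99021. On the lower side stood Lztfl1, a regulator of ciliary traffic, at -4.71 on 1435514_at, and Rps9, a ribosomal protein, at -4.38 on 1434624_x_at, with -5.51 and -5.25 in normal retina. Other probe sets of Rps9 gave 0.53 and 0.08, and those of Lztfl1 lay between -0.65 and 0.61. The genes Dzip1, Lman1 and Galc showed the same kind of disagreement, with -3.49, -3.30 and -3.18 on the named probe set and no other called, and Uqcr10, a subunit of respiratory complex III, gave -3.96, -2.45 and -0.21 on its 3. Of 94 named genes with several probe sets, 37 had no other probe set called and 5 had another called the opposite way, and whether the strains' sequence under the probes differs was not tested.

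By contrast Hmga2, among the 10 largest on the higher side, gave 3.02, 2.94 and 2.85 on 3 probe sets and 0.63 on the other. Tcim, a regulator linked to Wnt signalling, read 5.62 and 5.08 in B6 and 9.13 and 8.67 in 129, a difference of 3.56 (SE 0.19, adjusted p = 8.23e-07) that was 2.90 with vehicle and 1.13 in normal retina. Sox30, Gdpd3 and Tmem87a were higher in 129 by 4.61, 3.24 and 3.06 and Ifi44l by 3.09, and of these Ifi44l alone was not called in normal retina (0.24, adjusted p = 0.397). On the lower side Grik1, a kainate receptor, Mtmr7, a phosphoinositide phosphatase, and the genes Gm4792 and Pisd-ps3 gave -3.56, -3.63, -3.66 and -3.33, each with a difference of at least 2.94 in size in normal retina. Other probe sets of Ifi44l and Grik1 gave 0.38 (adjusted p = 0.0807) and -0.48 (adjusted p = 0.0651).

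The arrays with CHIR99021 share none with those of vehicle or normal retina, but the same fit gave each probe set a common spread in these comparisons. A probe set of small spread was thus favoured in every list, and the shared calls are not independent. With vehicle 9005 probe sets (20.0%) were called between the strains, and in normal retina 5188 (11.5%). Of the 4904 called with CHIR99021, 3187 (65.0%) were called in the same direction with vehicle, which is 35.4% of the vehicle list, and 27 in the opposite direction. In normal retina 2030 (41.4%) were called in the same direction, 39.1% of that list, and 82 in the opposite one. Of 729 that differed by at least 2-fold, 635 (87.1%) shared call and direction with vehicle and 467 (64.1%) with normal retina. The vehicle count of 9005 was 5481 without B6 replicate 2, 5876 without 129 replicate 1 and 4860 without 129 replicate 2, and that of normal retina was 3083 and 3359 without 129 replicate 1 and 2.

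The test of the change, CHIR99021 against vehicle, called 610 probe sets (1.35%), 175 with a shift toward 129 and 435 toward B6. The count fell to between 149 and 350 without any 1 of 7 of the 8 arrays, and to 441 without B6 CHIR99021 replicate 2. By genes, 109 shifted toward 129, of which 37 belonged to the mitosis list and 4 to the replication list, and 65 shifted toward B6, of which 7 were interferon-inducible.

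Nox4 (1451827_a_at), an NADPH oxidase that makes hydrogen peroxide, had the largest shift toward B6 among genes called in both tests. With CHIR99021 it read 6.69 and 6.38 in B6 and 3.36 and 3.58 in 129, a difference of -3.06 (SE 0.13, 8.36-fold, adjusted p = 2.24e-07), whereas the other 8 arrays lay between 3.12 and 3.61. The B6 arrays with CHIR99021 stood alone, the change was -2.77 (adjusted p = 0.000497), and the other probe set gave -0.87 between the strains. Adamts4 (1455965_at), a protease of matrix proteoglycans, read 6.58 and 6.64 in B6 and 3.87 and 3.80 in 129, a difference of -2.77 (SE 0.098, adjusted p = 6.69e-08) with a change of -1.45, but its other probe set gave -0.17 (adjusted p = 0.343).

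Calcb (1422639_at), which encodes the neuropeptide beta-CGRP, had the largest shift toward 129. It read 5.96 and 6.26 in B6 and 8.57 and 8.18 in 129 with CHIR99021, a difference of 2.26 (SE 0.14, adjusted p = 2.96e-06), while the other 8 arrays lay between 3.92 and 4.35. The agent was followed by a higher level in both strains, by 1.85 in B6 and 4.35 in 129, and the change was 2.50 (adjusted p = 0.000792). After it came Kif2c, a kinesin that removes faulty microtubule attachments, with a change of 2.38 on 1437611_x_at, whose other 3 probe sets were not called, at -0.03, 0.37 and 0.60 with CHIR99021, and Esco2, which acetylates cohesin in S phase, with 2.06.

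Esco2 read 2.91 and 2.98 in B6 and 5.30 and 5.24 in 129 with CHIR99021, and 2.7 and 2.88 against 3.15 and 2.96 with vehicle. The 129 arrays with the agent stood apart from all others, and the agent gave 2.22 in 129 (adjusted p = 7.69e-07) and 0.16 in B6 (adjusted p = 0.303). Depdc1a, a mitotic regulator, gave a change of 2.05, Aurkb, the kinase of the chromosomal passenger complex, 1.94, and Birc5, a member of the same complex, 1.84, all with adjusted p of at most 0.00283. Map1b, Nedd4 and Cd2ap were higher in 129 with a smaller gap than with vehicle, by 1.52, 1.29 and 0.86, and each had at least 1 other probe set within 0.03 of 0.

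**Figure D5:**
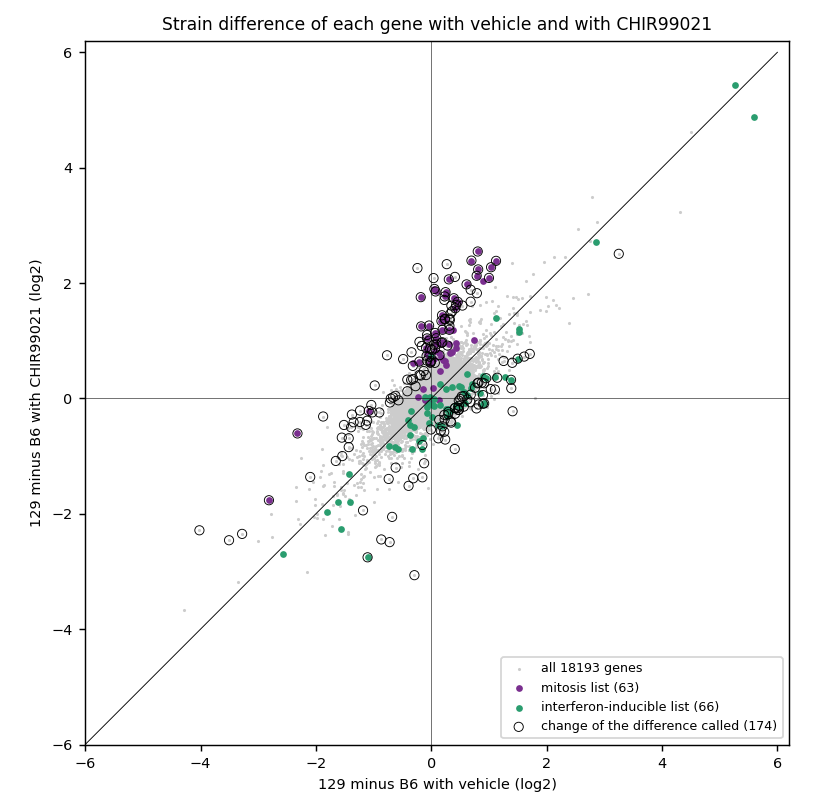
Strain difference with CHIR99021 (vertical) against that with vehicle (horizontal), both log2 of 129 over B6, with a point for each gene by its brightest probe set. Mitosis genes lie mostly above the diagonal, with a median of 0.96 against 0.18, and interferon-inducible genes lie mostly below it, with a median of -0.11 against 0.17.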

How the data were processed

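RNA of whole neural retina was hybridized to Affymetrix Mouse Genome arrays, 2 for each of 6 groups taken from the labels. The authors summarized the arrays with RMA, version not given in the sources used here. Deposited values are linear intensities, in which differences between weak signals are compressed. Per the labels RNA was purified with RNeasy, and per the methods with TRIZOL before it. Intensities were taken to log2, 64 control probe sets of 45101 were left out, and no filter on signal was applied. The 12 arrays were fitted with a mean per group for the 6 groups with limma 3.58.1 in R 4.3.3, with eBayes (4.69 prior and 6 residual degrees of freedom), and p-values were adjusted by Benjamini-Hochberg over all 45037 probe sets within each comparison. The number of arrays limits the precision. The steps were tested on simulated data.

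The array annotation gave 1 symbol to 34945 probe sets and covered 18193 genes. For lists, the probe set whose mean level over the 12 arrays was highest stood for the gene, and list members without a match by symbol were left out. Members and lists were chosen with earlier results of these data known. Several lists hold genes that the paper selected by their strain difference in the vehicle explants. Examples are Uhrf1, Rrm2, Hells, Pbk, Nusap1, Hmga2, Ifi202b, Met, Fosl1, Ets1, Casp1, Pmaip1, Gfap, A2m, Fgf2, Serping1, Ccl9 and Clec7a. For such genes a strain difference with vehicle was fixed by that choice. Named genes were the 10 largest differences each way, up to 5 called genes of each list, the called genes that the study names, and up to 8 each way with the largest change, plus those said to be named after their values were seen. No array column was left unmapped. Alternatives were leaving out each array, a replicate block, only the compared arrays, a filter at the median level, cyclic loess, centring on housekeeping genes, trended robust eBayes and the mean of a gene's probe sets. Promoters came from RefSeq (GRCm38.p6), and protein and genome sequences were not used here.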

Additional observations from a re-analysis of the deposited data

Results flagged for a closer look

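For 34 named probe sets the strain difference with CHIR99021 differed from that with vehicle in the test of the change, adjusted over all probe sets, and 18 of them kept that call without any 1 of the 8 arrays. All changes are log2. Among these 18, mitosis and related genes shifted toward 129, namely Kif2c by 2.38, Esco2 by 2.06, Depdc1a by 2.05, Aurkb by 1.94, Birc5 by 1.84, Cdc20 by 1.78, Mki67 by 1.76, Spc25 by 1.71, Melk by 1.69, Cep55 by 1.42 and Nusap1 by 1.24. Cdc20 had another probe set with a strain difference of 0.18 (adjusted p = 0.145). The neuropeptide gene Calcb shifted by 2.50. Toward B6 shifted Nox4 (-2.77), Nedd4 (-1.83), Map1b (-1.61), Cxcl5 (-1.58), Cd2ap (-1.47) and Adamts4 (-1.45). Over the arrays left out, the adjusted p of these 18 was at most 0.0467, for Nusap1.

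The other 16 lost the call without at least 1 array. The mitosis genes Ube2c and Bub1 changed by 1.94 and 1.74, with adjusted p between 0.0195 and 0.107 and between 0.0107 and 0.0946 without 1 array. Pbk changed by 1.26 and Mcm5 by 0.99, with at most 0.0963 and 0.0759. The microglial genes Aif1 (0.87), Olfml3 (0.74) and C1qa (0.57) and the chromatin gene Mbd1 (0.59) had a smaller gap with CHIR99021 than with vehicle, and Mrc1 (-1.12) a larger one. Sp5 changed by 0.83, with adjusted p between 0.0408 and 0.138. Toward B6 shifted Mndal on both probe sets (-1.85 and -1.65), Cxcl10 (-1.77), Aqp4 (-1.0), Msmo1 (-0.89) and Phlda3 (-0.66). For Cxcl10 the adjusted p was 0.0294 to 0.142 without 1 array, and for Aqp4 0.0115 to 0.123. Mbd1, Msmo1, Mrc1 and Phlda3 lost the call whichever array was left out.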

How the results depend on the processing

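The strain difference with CHIR99021 kept its count within 1.5 times under every alternative other than leaving out arrays (3556 to 6235 probe sets against 4904), and no named difference or change turned its sign. Without 1 array it counted 2694 to 3411, the difference with vehicle 4860 to 6128, that in normal retina 3083 to 3922, and the change 149 to 441. With only the compared arrays the difference in normal retina counted 2934. Centred on housekeeping genes it counted 12865, of which 89.4% were higher in 129 against 52.7%, since the 10 genes shifted the 129 arrays by -0.353 and -0.337 and the B6 arrays by -0.116 and -0.221. That centring gave 68.9% higher with vehicle against 57.1%, and 55.3% with CHIR99021 against 55.2%. Trended robust eBayes gave 1464 for the change, and without 129 CHIR99021 replicate 2 40.6% of its calls were toward 129 against 28.7%. Deviations of samples that share a replicate number correlated between groups with r of -0.107 to 0.0436, and of -0.0018 between the strains with CHIR99021. No pairing by number was seen, but such values cannot show whether retinas shared an animal or a batch. With the replicate block the counts were 4639 with CHIR99021, 8457 with vehicle, 4791 in normal retina and 519 for the change, and 7 named differences and 3 named changes lost their call. Of 160 named differences 38 lost their call without at least 1 array. A filter at the median level left out probe sets of low signal, such as Esco2, and gave no value for them. Limits are the 2 arrays for each group and weak signal, since RMA compresses differences of genes with log2 levels of about 3 to 4.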
